A study of Homo sapiens with 6 samples.

Results

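The proteasome is the barrel-shaped protease that degrades proteins tagged with ubiquitin in every human cell. Its core particle is a stack of rings of alpha subunits (PSMA genes), which form the gate, and beta subunits (PSMB genes), of which PSMB5, PSMB6 and PSMB7 carry the chymotrypsin-like, caspase-like and trypsin-like active sites. The regulatory particle that caps the core holds a ring of ATPases (PSMC genes), which unfold substrates, and non-ATPase subunits (PSMD genes), which bind and remove ubiquitin. Interferons and other cytokines induce PSMB8, PSMB9 and PSMB10, which replace the constitutive active sites in the immunoproteasome.

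The members were the genes named PSMA1 to PSMA7, PSMB1 to PSMB7, PSMC1 to PSMC6 and PSMD followed by a number that had a probe set with exactly 1 gene symbol, and for each gene the probe set was chosen by the highest mean over the 6 arrays. This gave 31 of the 18417 genes analysed, 14 of the core and 17 of the regulatory particle. PSMC5, PSMD7 and PSMD13 were not analysed here. The rule also takes in PSMD5, PSMD9 and PSMD10, which are assembly chaperones and no parts of the finished particle. By their names, SEM1 and ADRM1 were left out, and they were counted below in the list of bound factors. The mean level chose the probe sets, so the levels below are a description, while the difference between the groups played no part in that choice.

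The arrays came from IMR90 cells, human lung fibroblasts described in the labels as primary, all grown from this 1 line. The control group was 3 untreated samples and the other group 3 samples given 1 dose of recombinant human oncostatin M at 10 ng/mL, with 1 array per sample, and the comparison addresses which transcripts differ after this interleukin-6 family cytokine. The labels give no time of treatment. They also do not tell whether the replicates came from different cultures, and the p-values then cover no more than the spread among these arrays, part of which may be technical. In RNA from whole cultures, fewer cells expressing a gene and less RNA per cell cannot be told apart.

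Values are log2 expression values as deposited, and a change is the mean of the oncostatin M arrays minus that of the control arrays. A gene is said to rise or fall where the adjusted p was under 0.05 (limma, Benjamini-Hochberg over all genes). Array medians over all probe sets ran from 6.54 to 6.66. The mean levels of 9 fibroblast markers ran from 6.75 for S100A4 to 13.55 for FN1, and those of 10 epithelial, endothelial and immune markers from 3.85 to 6.55, with none of the 10 past the threshold. Of 3 smooth muscle markers none passed either, with mean levels from 6.05 for MYH11 to 12.90 for ACTG2. ACTG2, a smooth muscle actin, had a change of -0.22 with all oncostatin M values below the controls (adjusted p = 0.275, limma). These levels come from different probe sets and give no order of abundance. PDGFRA, a fibroblast receptor, rose by 0.39 (adjusted p = 0.0337), a call lost with a replicate block (0.0697) and without control 1, control 2, control 3 or oncostatin M 2 (up to 0.157, without control 1). The array oncostatin M 1 stood apart from its group, with an array weight of 0.226 against 0.723 to 3.225 for the others. Many of the results below are given both with and without this array.

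Promoter sequences from RefSeq (GRCh38.p14) matched 26 of the 31 members; PSMA7, PSMB1, PSMB6, PSMB7 and PSMD4 had no entry in the table. They are shown because the transcription factors NFE2L1, NFE2L2 and NFE2L3, whose levels are given below, bind antioxidant response elements, whose core is TGACNNNGC. On either strand of the 250 bases before the start, 6 of 26 members (23.1%) held this core, against 13.2% of 27305 genes in the table. A gene counted if any of its promoter entries held the motif, and the 26 members had 31 entries. The genes in the table were not limited to those analysed on the arrays. The promoter of PSMD3, a lid subunit, held this core from 37 bases and a STAT-type motif, TTCNNNGAA, from 94 bases before the start. All oncostatin M values of PSMD3 lay below the controls. The same held for PSMC3, PSMC4, PSMD2, PSMD11 and PSMD14, whose promoters lacked the core. PSMB3, with the highest change of the members (0.12), also held the core. Both PSMD3 motifs are in capitals in its 250 bases at chr17:39980557-39980806 (plus strand).
PSMD3: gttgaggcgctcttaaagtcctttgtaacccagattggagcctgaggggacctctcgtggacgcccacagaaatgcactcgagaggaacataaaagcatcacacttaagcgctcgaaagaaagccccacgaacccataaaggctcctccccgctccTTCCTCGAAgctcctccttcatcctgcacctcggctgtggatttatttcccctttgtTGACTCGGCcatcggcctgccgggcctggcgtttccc

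The other members with the core, with 20 bases on each side and the core in capitals on whichever strand it lies, are shown here to set the variable letters side by side.
PSMA4, chr15:78540640-78540688, plus strand, motif from 126 bases before the start: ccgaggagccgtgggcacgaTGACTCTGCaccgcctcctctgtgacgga
PSMB3, chr17:38752617-38752665, plus strand, motif from 104 bases before the start: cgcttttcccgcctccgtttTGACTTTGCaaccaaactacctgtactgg
PSMD12, chr17:67366714-67366762, minus strand, motif from 165 bases before the start: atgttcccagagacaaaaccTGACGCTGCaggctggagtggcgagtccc
PSMD5, chr9:120843028-120843076, minus strand, motif from 134 bases before the start: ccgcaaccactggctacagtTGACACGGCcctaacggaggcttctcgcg
PSMD9, chr12:121888621-121888669, plus strand, motif from 149 bases before the start: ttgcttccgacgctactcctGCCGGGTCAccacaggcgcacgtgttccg
PSMD9, chr12:121888668-121888716, plus strand, motif from 102 bases before the start: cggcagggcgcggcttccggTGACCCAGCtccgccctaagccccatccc

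PSMD9 held the core at 2 places. The median change was -0.078 for the 6 members with the core and -0.095 for the 20 without it. The STAT-type motif was in 4 of 26 member promoters (15.4%) and in 8.09% of all, with a median member change of -0.080 with it and -0.095 without. The NF-Y motif CCAAT was in 13 (50%, against 37%), with medians of -0.044 with it and -0.11 without. The ETS motif CCGGAAG was in 6 (23.1%, against 10.2%), with medians of -0.11 with it and -0.071 without. The median was thus farther from 0 with the motif for ETS and nearer to 0 for the other three, and these differences were not tested. A match in these letters is no proof of a bound site, and motif positions can overlap.

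No constitutive proteasome gene passed the threshold. Of 31 members 0 rose and 0 fell (limma), against 1.72% of all genes higher, 1.7% lower and 3.42% in all. The shares of all genes, here and below, are over genes of any level. Member mean levels were 7.88 or more, above the array medians of 7.30 to 7.34 over these genes. In a fit of only genes above the median level, 336 were higher and 403 lower, and no member was called. At an unadjusted p under 0.05, 4 members (12.9%) lay lower and 0 higher, against 6.66% and 4.98% of all genes, and no other model tried called a member. The changes were small: they ran from -0.30 (PSMD2) to 0.12 (PSMB3), with a median of -0.074 against 0.0006 for all genes. Without oncostatin M 1 the median was -0.036, against -0.014. The 95% interval of the change lay within a 1.5-fold difference in either direction for all 31 members (93.9% of all genes), and within 1.25-fold for 21 of them (57.6% of all genes). These intervals are per gene and not adjusted for the number of genes.

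Most of these small values had the same sign. Changes lay below 0 for 27 of 31 members, 11 of 14 in the core and 16 of 17 in the regulatory particle, against 49.8% of all genes. Without oncostatin M 1 they did so for 22 members (71.0%), 9 in the core and 13 in the regulatory particle, against 55.1% of all genes. The per-array mean of the core was 11.00, 10.97 and 11.05 on control arrays 1 to 3 and 10.85, 11.02 and 11.02 on oncostatin M arrays 1 to 3. These overlap, and only oncostatin M 1 lay below the controls. The change of the core mean was -0.043 (control 11.01 ± 0.038, oncostatin M 10.96 ± 0.098, SD, n = 3 each), and without oncostatin M 1 it was 0.014.

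The per-array mean of the regulatory particle was 10.26, 10.24 and 10.29 on the control arrays and 10.01, 10.19 and 10.23 on the oncostatin M arrays. Here all 3 oncostatin M arrays lay below all 3 controls, with oncostatin M 3 close to control 2. The change was -0.12 (control 10.26 ± 0.028, oncostatin M 10.14 ± 0.12, SD, n = 3 each), and it was -0.055 without oncostatin M 1. The regulatory mean minus the core mean on the same array was -0.74, -0.74 and -0.76 in control and -0.84, -0.84 and -0.79 after oncostatin M. In this difference oncostatin M 1 no longer stood apart from oncostatin M 2, and the groups did not overlap. Its change was -0.077, and -0.069 without oncostatin M 1. No p is given for such means, because the members were chosen with earlier results known.

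**Figure D1:**
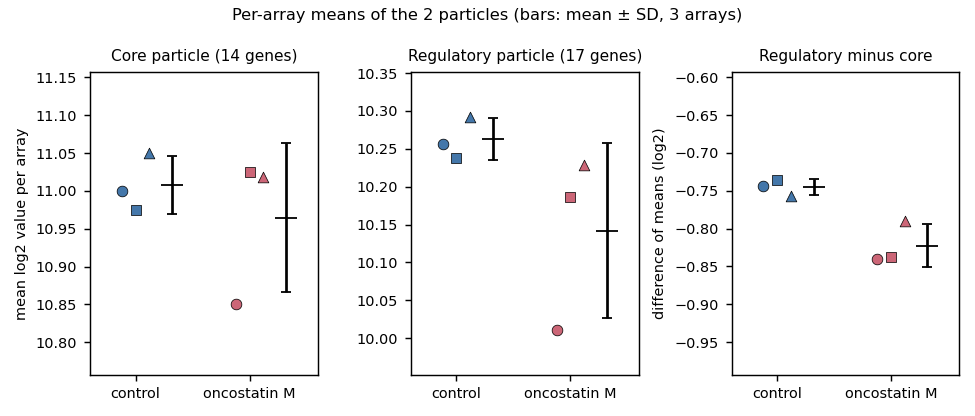
Mean log2 value per array over the 14 core genes, the 17 regulatory genes, and the second minus the first, for control (blue) and oncostatin M (red) arrays; circles, squares and triangles are replicates 1, 2 and 3, and bars give mean ± SD over 3 arrays. Oncostatin M 1 is the low point of the first 2 panels (10.85 and 10.01), and in the third panel the control values (-0.76 to -0.74) lie above the oncostatin M values (-0.84 to -0.79).

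Oncostatin M 1 was below all 3 controls for 27 of 31 members, oncostatin M 2 for 14 (45.2%) and oncostatin M 3 for 8 (25.8%), against 34.6%, 30.9% and 26.5% of all genes. Within the regulatory particle the counts were 16, 10 and 7 of 17, and within the core 11, 4 and 1 of 14. The lowest of the 6 values fell on oncostatin M 1 for 26 members (83.9%), against 28.7% of all genes.

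The groups did not overlap, with oncostatin M lower, for 7 members (22.6%), against 10.6% of all genes, and for no member with oncostatin M higher (7.43% of all genes). PSMB7 was the only one in the core, and PSMC3, PSMC4, PSMD2, PSMD3, PSMD11 and PSMD14 were in the regulatory particle. Leaving out an array cannot make such groups overlap, and without oncostatin M 1 PSMD4 was added to the 7 (8 of 31, 25.8%, against 17.3% of all genes with 3 against 2 arrays).

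**Figure D2:**
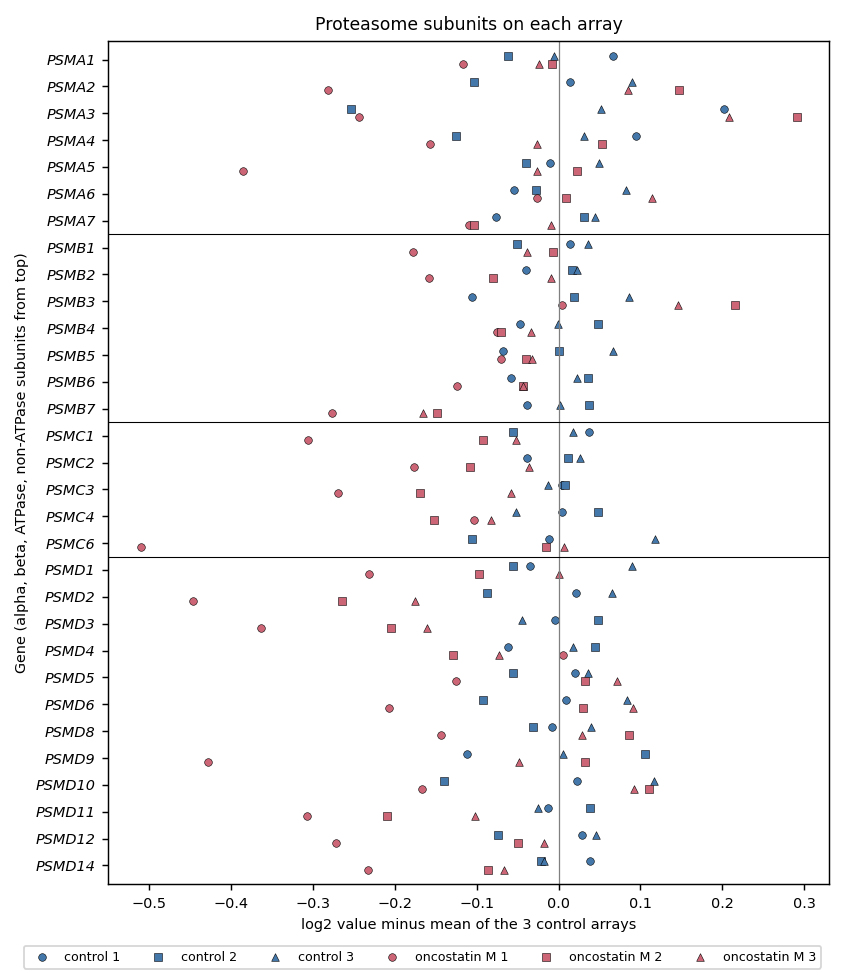
Log2 value of each of the 31 genes on each array minus the mean of its 3 control arrays, with control arrays in blue and oncostatin M arrays in red. The red circles (oncostatin M 1) are the lowest point for 26 genes, and all 3 red symbols lie left of all blue ones for 7 genes, 6 of them PSMC or PSMD.

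Among the alpha subunits, changes ran from -0.13 to 0.085 (median -0.044, and 0.013 without oncostatin M 1) and no group stood apart. PSMA5, with the largest change in this ring, had 10.08, 10.05 and 10.14 in control and 9.71, 10.12 and 10.07 after oncostatin M. Its change of -0.13 (SE 0.11, adjusted p = 0.838, limma) rested on oncostatin M 1, and it was -0.0019 without that array. PSMA3 had 11.01, 10.56 and 10.86 in control and 10.57, 11.10 and 11.02 after oncostatin M. Its 2 lowest values were control 2 and oncostatin M 1, so both groups were wide, and the change was 0.085 (SE 0.16), or 0.25 without oncostatin M 1. PSMA2 followed the same array pattern, with 10.60 on control 2 and 10.43 on oncostatin M 1 against 10.72 to 10.85 on the other 4 arrays. Its change of -0.016 turned to 0.12 without oncostatin M 1. PSMA7 had 10.09 to 10.21 in control and 10.05 to 10.15 after oncostatin M (change -0.074), with overlapping groups. In all, 12 members (38.7%), among them PSMA1 to PSMA5, had control 2 and oncostatin M 1 as their 2 lowest arrays, against 13.5% of all genes. The part of sample handling or RNA quality in this array pattern was not tested.

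Of the catalytic beta subunits, PSMB7 had the change farthest from 0. PSMB5, the site targeted by bortezomib, had 11.77, 11.83 and 11.90 in control and 11.76, 11.79 and 11.80 after oncostatin M. Its groups overlapped, and the change was -0.047 (95% interval -0.21 to 0.11). PSMB6 had 11.90, 11.99 and 11.98 in control and 11.83, 11.91 and 11.91 after oncostatin M, a change of -0.070 (95% interval -0.23 to 0.090), or -0.043 without oncostatin M 1. PSMB7 had 11.17, 11.25 and 11.21 in control and 10.94, 11.06 and 11.05 after oncostatin M. All 3 oncostatin M arrays were lower than every control, and the change of -0.20 (SE 0.071, unadjusted p = 0.024, adjusted p = 0.285, limma) did not pass. Without oncostatin M 1 the change of PSMB7 was -0.16. The structural subunit PSMB3 went the other way, from 9.97, 10.10 and 10.17 to 10.08, 10.29 and 10.23 (change 0.12, adjusted p = 0.766, limma), with overlapping groups and a change of 0.18 without oncostatin M 1. PSMB2 differed by -0.082, and by -0.045 without oncostatin M 1. The ring's median was -0.070, and -0.043 without that array.

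All 5 measured ATPase genes had changes below 0, from -0.17 to -0.11 with a median of -0.15, and none passed. Without oncostatin M 1 all 5 still lay below 0, from -0.12 to -0.0042, and the median was -0.072; the change of their per-array mean went from -0.14 to -0.076. PSMC3 had 10.04, 10.04 and 10.02 in control and 9.76, 9.86 and 9.97 after oncostatin M. Its controls lay close together (SD 0.011) and all oncostatin M values were lower but spread (SD 0.11). The change was -0.17 (SE 0.077, adjusted p = 0.483, limma), or -0.11 without oncostatin M 1. PSMC6 had 9.53, 9.44 and 9.66 in control and 9.04, 9.53 and 9.55 after oncostatin M. Its change of -0.17 was -0.0042 without oncostatin M 1. The change was -0.15 for PSMC1 and -0.11 for PSMC2, and -0.072 for each of them without oncostatin M 1.

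PSMC1 and PSMC6 were the members with 2 probe sets each. The other probe set gave -0.15 for PSMC1, as the one used, but only -0.065 for PSMC6. By probe set number, 0 of the 20 nearest named probe sets to the one used belonged to genes on the chromosome of PSMC1, and 0 of 20 for PSMC6, while for the other probe set the counts were 19 and 20. Which locus the sets used for PSMC1 and PSMC6 measure is therefore uncertain. The range and median of the ATPase changes and the regulatory mean above use these sets, and the ATPase median of -0.15 is the value of PSMC1. With the mean over all probe sets of a gene, the change of PSMC6 was -0.119 and that of the regulatory mean -0.117. For the other 29 members at least 10 of 20 neighbours were on the gene's chromosome.

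The non-ATPase genes held the changes farthest from 0. PSMD2, the large scaffold subunit of the base that binds ubiquitin shuttles, had 11.28, 11.17 and 11.32 in control and 10.81, 10.99 and 11.08 after oncostatin M. Every oncostatin M value was below every control, and the change was -0.30, or 1.23-fold lower (SE 0.090, 95% interval -0.50 to -0.087, unadjusted p = 0.0112, adjusted p = 0.175, limma). It was -0.22 without oncostatin M 1, and the adjusted p ran from 0.0594 to 0.507 over the other models. PSMD3, a lid subunit, had 10.87, 10.92 and 10.83 in control and 10.51, 10.67 and 10.72 after oncostatin M, again without overlap (change -0.24, SE 0.079, adjusted p = 0.214, limma). The change of PSMD3 was -0.18 without oncostatin M 1. PSMD11, a lid subunit known to promote assembly of the full particle, had 10.83, 10.88 and 10.82 in control and 10.54, 10.63 and 10.74 after oncostatin M. Its change was -0.21 (SE 0.077, adjusted p = 0.307, limma), and -0.16 without oncostatin M 1.

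The 6 PSMD-named lid genes measured all had changes below 0 (median -0.12), with PSMD14, the deubiquitinase of the lid, at -0.13 and PSMD8 nearest to 0 at -0.0095. All 6 were lowest on oncostatin M 1, and the per-array lid mean of 10.49 to 10.52 in control was 10.25, 10.44 and 10.47 after oncostatin M. Without oncostatin M 1 the change of the lid mean went from -0.12 to -0.055 and that of PSMD14 to -0.077, and 4 of the 6 genes lay below 0, with PSMD8 at 0.058. SEM1, which the PSMD names leave out, had a change of -0.027 with overlapping groups, and 0.020 without oncostatin M 1. ADRM1, also left out, had a change of -0.13 with all oncostatin M values below the controls. The chaperones PSMD5, PSMD9 and PSMD10 had changes of -0.0071, -0.15 and 0.012, with overlapping groups in each case. PSMD9 had 7.93 on oncostatin M 1 and 8.25 to 8.46 on the other 5 arrays, with the other oncostatin M arrays inside the control range, and its change was -0.0078 without oncostatin M 1. Those of PSMD5 and PSMD10 were then 0.052 and 0.10.

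**Figure D3:**
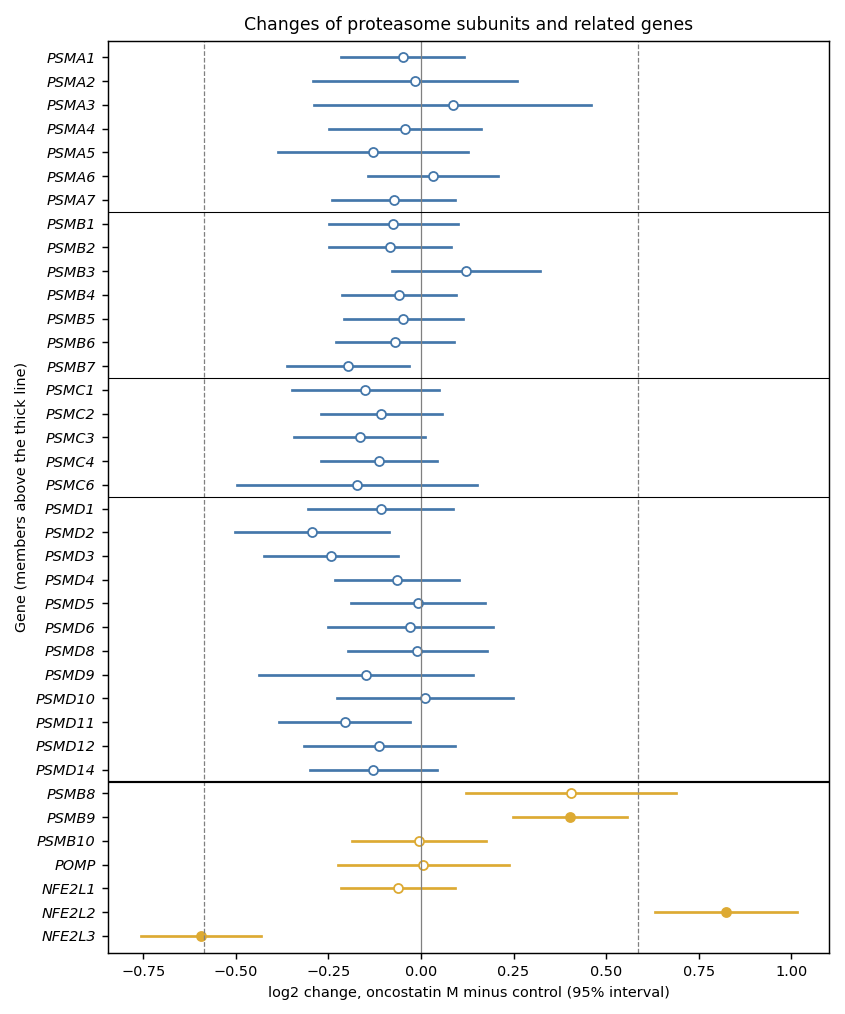
Change (oncostatin M minus control, log2) of the 31 members and 7 related genes with its 95% interval from limma; filled circles passed an adjusted p of 0.05 and dashed lines mark a 1.5-fold difference. All 31 member intervals lie between the dashed lines and no member circle is filled, while PSMB9, NFE2L2 and NFE2L3 are filled.

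The inducible subunits take the same places in the core as the 3 constitutive catalytic subunits. PSMB9, the counterpart of PSMB6, rose from 7.18, 7.22 and 7.13 to 7.57, 7.61 and 7.57 (change 0.40, adjusted p = 0.0149, limma), although the call was lost without any 1 array except oncostatin M 1 (adjusted p up to 0.0871, without control 1) and with a replicate block (0.0534). Its 3 probe sets held the same values. PSMB8, the counterpart of PSMB5, had 6.77, 6.67 and 6.80 in control and 7.14, 7.41 and 6.90 after oncostatin M (change 0.41, adjusted p = 0.169, limma), and PSMB10, the counterpart of PSMB7, differed by -0.0045. The 95% intervals of PSMB9 (0.25 to 0.56) and PSMB6 (-0.23 to 0.090) did not meet. Nor did those of PSMB8 (0.12 to 0.69) and PSMB5 (-0.21 to 0.11), while those of PSMB10 (-0.19 to 0.18) and PSMB7 (-0.36 to -0.033) overlapped. The differences between the genes were not tested.

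Of the factors that drive proteasome genes, NFE2L1, which induces them when proteasomes are inhibited, had overlapping groups, with 10.52, 10.55 and 10.50 in control and 10.50, 10.41 and 10.47 after oncostatin M (change -0.061, adjusted p = 0.903, limma). NFE2L2, the regulator of the antioxidant response, rose 1.77-fold from 10.35, 10.18 and 10.29 to 11.02, 11.21 and 11.06 (change 0.82, adjusted p = 0.0015, limma). NFE2L3, a related factor, fell 1.51-fold, from 9.79, 9.76 and 9.85 to 9.27, 9.16 and 9.18 (change -0.59, adjusted p = 0.00309, limma). Both held their call in each of the other models, with adjusted p up to 0.0163 and 0.029.

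Other genes of the pathway were counted in the same way. Over 42 measured genes of 7 lists (inducible and tissue-specific subunits, activators, assembly chaperones, bound factors, transcription factors, ubiquitin genes, shuttles), 2 rose (4.76%, against 1.72% of all genes) and 1 fell (2.38%, against 1.7%), namely PSMB9, NFE2L2 and NFE2L3. The median change was -0.018, and 0.023 without oncostatin M 1. The groups did not overlap, with oncostatin M lower, for 8 of the 42 (19.0%, against 10.6% of all genes). Of these, 3 were among the 9 shuttle and segregase genes, so such values were not limited to proteasome subunits. Oncostatin M was higher without overlap for 6 of the 42 (7.43% of all genes). None of the 5 activators and inhibitor passed. PSME1 and PSME2, the interferon-induced cap, differed by 0.11 and 0.087 (adjusted p = 0.685 and 0.816, limma). Each had all oncostatin M values above the controls, for PSME2 by a very narrow margin (9.1676 on oncostatin M 1, 9.167 on control 2). PSME4 differed by -0.18 with all below (adjusted p = 0.484, limma). POMP, which guides assembly of the core, differed by 0.0062. VCP, the segregase that extracts substrates, differed by -0.17 without overlap (adjusted p = 0.394, limma), and the ubiquitin gene UBB by -0.039. PSME1, PSME2, PSME4, VCP and UBB were picked after their values were seen.

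Other abundant complexes gave a scale for these values, and no member of theirs passed (3.42% of all genes did). The median change was -0.041 for 9 genes of the COP9 signalosome, whose architecture resembles the lid, -0.0043 for 12 eIF3 subunits and 0.012 for 8 subunits of the TRiC chaperonin. Changes lay below 0 for 6 of 9, 7 of 12 and 3 of 8, and no gene of the 3 complexes had an oncostatin M group entirely below control (10.6% of all genes did). Without oncostatin M 1 their medians were 0.028, 0.047 and 0.026. The lowest value fell on oncostatin M 1 for 6, 9 and 3 of them. Their per-array means after oncostatin M 1 were also their lowest (9.74, 10.78 and 10.74, against 9.92 to 10.03, 10.85 to 10.92 and 10.78 to 10.84 elsewhere), so a low value on that array was not limited to the proteasome. The differences between the complexes were not tested.

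**Figure D4:**
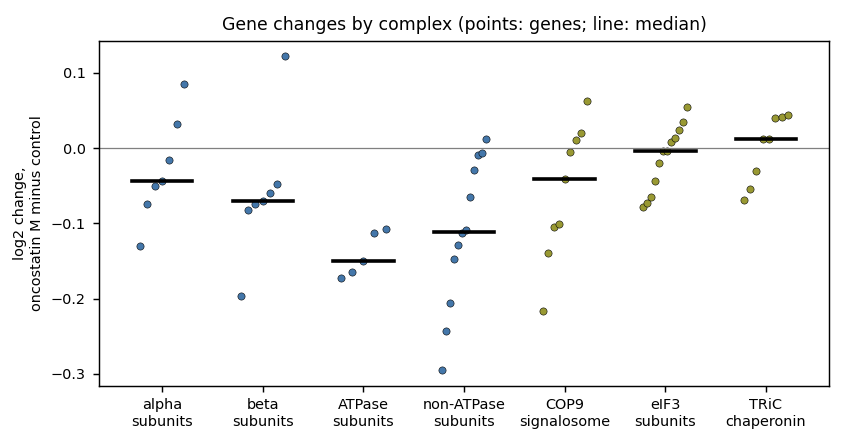
Change of each gene (points, oncostatin M minus control, log2) in 4 groups of proteasome genes (blue) and 3 other complexes (olive), with the median as a black line. The medians are -0.15 for ATPase and -0.11 for non-ATPase genes, and between -0.070 and 0.012 for the other 5 groups. Without oncostatin M 1 the ATPase and non-ATPase medians are -0.072 and -0.041. The ATPase median of -0.15 is the value of PSMC1, whose probe set is of uncertain locus, as is that of PSMC6.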

How the data were processed

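The series holds 6 arrays of total RNA, 3 control and 3 oncostatin M, grouped by the labels. Biotin-labelled targets were made from column-purified RNA, per the labels. The values used are those deposited: log2 expression, 1 value per probe set and array. The submitters' processing notes name RMA and Affymetrix Expression Console, version 1.1, with no settings. RMA makes the distributions of the arrays alike, so a change is relative to the rest of the array, and small differences tend to shrink at low intensity. Levels of different probe sets are not comparable. The number of arrays limits the precision, and no detection calls were used.

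Of 33297 probe sets, 19460 had 1 gene symbol, 1754 several and 12083 none in the platform's gene table. The symbols of the 31 members matched RefSeq through their gene numbers. One limma model (version 3.58.1, R 4.3.3; lmFit, eBayes, group as the only term, two-sided, Benjamini-Hochberg) covered all 18417 genes, without a filter, and was tested on simulated data. Members and lists were chosen with earlier results of these data known. The text gives each subgroup's 3 largest changes and the smallest, the catalytic and inducible subunits, NFE2L1, POMP and called genes of the lists; others named, including those whose groups did not overlap, were chosen after their values were seen. Genes of the lists with no single-symbol probe set were not analysed here. Alternatives covered normalization, probe set choice, a filter, the prior on the variance, weights per array, a replicate block, thresholds and each array left out. Figures were drawn with matplotlib 3.10.9.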

Additional observations from a re-analysis of the deposited data

How the results depend on the processing

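No member of the proteasome was called under any of the alternatives: quantile normalization, centring of arrays on their median, the mean over probe sets, only genes above the median level, another variance prior, array weights, a replicate block, thresholds of 0.01 and 0.1, and each array left out. The smallest adjusted p over the members was 0.0594 (PSMD2, variance prior with trend and robust) and the largest such minimum 0.471 (without control 1). Changes lay below 0 for 9 to 12 core and 13 to 17 regulatory members. Over all genes, 316 were higher and 314 lower, but 667 and 610 with array weights, 175 and 112 at a threshold of 0.01, and 156 to 400 and 105 to 332 when 1 array was left out. The change of the core mean moved by less than its within-group SD in each alternative. That SD includes oncostatin M 1 (SD 0.098 for oncostatin M, 0.038 for control), so this cannot tell whether the change of -0.043 is stable. The sign of this change turned with array weights (0.0046) and without oncostatin M 1. The regulatory mean ran from -0.16 to -0.055.

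Some genes changed sign, mostly those near 0, while PSMA3 had a change of 0.085 with a wide spread (SE 0.16). PSMA2 was 0.0036 with quantile normalization, 0.075 with array weights, and -0.098 to 0.12 without 1 array. PSMD5 was 0.028, 0.043, and -0.046 to 0.052 in the same order. POMP was -0.0053 with centred arrays and -0.086 to 0.068 without 1 array, PSMA3 ran from -0.042 to 0.25 and PSMB10 from -0.049 to 0.045. The cause was not tested.

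With replicate number as a replicate block, 255 genes were higher and 223 lower, and PSMB9 (0.40, adjusted p = 0.0534, limma) and PDGFRA (0.39, adjusted p = 0.0697, limma) lost their calls. The deviations of same-numbered arrays from their group means correlated at 0.064, -0.456 and 0.511, and the labels do not say whether a number marks a shared culture or day, so the arrays were not treated as pairs.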
